A study of Mus musculus with 6 samples.

Results

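The genes described here encode the contractile apparatus of muscle, in a smooth muscle group that fibroblasts also use when they become contractile myofibroblasts and a striated muscle group of skeletal and cardiac muscle. They were taken as a given list of 35 gene symbols, 13 of smooth and 22 of striated muscle, and matched to the array through its platform annotation. All 35 had at least 1 spot, 44 spots in all, out of 16504 named genes. The cells were cultured mouse embryonic fibroblasts from embryos of 15.5 days on a 129/Sv-Black Swiss background, and cytoplasmic RNA was taken at passage 2. Each of 3 mutant genotypes was hybridised with wild type on 2 two-colour Agilent 60-mer arrays, with RNA pooled from 3 littermate embryos. Wrn encodes a RecQ helicase, and the Wrn mutant has lost part of that helicase in frame. The PARP-1 null lacks poly(ADP-ribose) polymerase 1, an enzyme activated at DNA breaks, and the double mutant combines the 2 alleles. The wild type was always labelled with Cy5 and the mutant with Cy3. The fibroblast cultures were mixtures of whatever cells grew out of an embryo, so fewer cells of a type and less RNA per cell cannot be told apart.

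Contraction in all these cells rests on actin filaments pulled by myosin. In smooth muscle and myofibroblasts, calcium acts through myosin light chain kinase, with calponin, caldesmon and tropomyosin lying along the actin filament. In striated muscle, calcium binds the troponin complex on the thin filament. Serum response factor (SRF), with myocardin or its relatives as partners, binds the DNA element called the CArG box near many smooth muscle and sarcomeric actin genes. The MyoD family of E-box-binding factors switches on the skeletal muscle genes. Cultured embryonic fibroblasts are known to carry alpha smooth muscle actin in variable amounts.

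Values are log2 ratios read as mutant over wild type, with the mean ± SD over the 2 arrays of a genotype. This direction is likely and not stated in the sources: Parp1 stood at -2.45 ± 0.22 in PARP-1 null cells and -2.78 ± 0.27 in double-mutant cells, against -0.22 ± 0.13 in Wrn mutant cells (n = 2 each). It is opposite to the scanner software's usual ratio of Cy5 over Cy3 with the dyes as stated. A turned sign would mirror every direction given here. Wild type had no array of its own and dyes were not swapped, so a ratio also holds any dye bias of its spot. The second double-mutant array is named as double mutant in its title and source, while its strain label reads wild type. Its Parp1 value was -2.59, against -2.97 on the first. The Wrn spot was at 0.71 ± 0.19 in Wrn mutant cells, -0.12 ± 0.24 in PARP-1 null cells and 0.48 ± 0.33 in double-mutant cells. Its place relative to the deletion is unknown here, so it does not check the label. From 16.9% to 23.7% of spots, depending on the array, read exactly 0, whose meaning is not stated. The files hold no signal intensities, so whether a muscle gene was above background in these cells is unknown.

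The promoters of members that carry a CArG box are shown first. The 4 genes concerned shared an order of arrays described further on, as did nearly all smooth muscle genes. RefSeq windows of the assembly GRCm38.p6, running from 250 bases before to 50 bases after the transcription start, were held for 28 of the 35 members. Among those without a window were Tagln, Actg2 and Myh11 of the smooth muscle group, so nothing is said here of their promoters. A full CArG box lay in 2 of 11 smooth muscle windows and in 2 of 21 striated muscle windows, against 1.63% of 32851 windows of all genes. The element is its own reverse complement, so 1 search covers both strands. Capitals mark the box, which begins at -56 from the start in the calponin gene Cnn2, -161 in the light chain gene Myl9, -73 in the skeletal actin gene Acta1 and -47 in the cardiac actin gene Actc1.
Cnn2, chr10:79988350-79988649, plus strand: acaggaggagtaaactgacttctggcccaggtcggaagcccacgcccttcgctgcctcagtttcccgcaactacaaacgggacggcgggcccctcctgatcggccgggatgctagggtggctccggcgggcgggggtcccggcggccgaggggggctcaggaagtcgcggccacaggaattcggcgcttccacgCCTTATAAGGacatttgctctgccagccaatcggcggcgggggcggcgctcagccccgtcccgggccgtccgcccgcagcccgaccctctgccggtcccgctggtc
Myl9, chr2:156775214-156775513, plus strand: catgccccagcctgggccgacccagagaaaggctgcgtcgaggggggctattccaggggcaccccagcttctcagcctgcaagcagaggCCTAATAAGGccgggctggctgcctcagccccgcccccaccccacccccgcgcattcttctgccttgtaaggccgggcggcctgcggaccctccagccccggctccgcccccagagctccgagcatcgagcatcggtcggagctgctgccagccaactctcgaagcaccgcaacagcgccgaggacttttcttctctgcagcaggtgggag
Acta1, chr8:123894726-123895025, minus strand: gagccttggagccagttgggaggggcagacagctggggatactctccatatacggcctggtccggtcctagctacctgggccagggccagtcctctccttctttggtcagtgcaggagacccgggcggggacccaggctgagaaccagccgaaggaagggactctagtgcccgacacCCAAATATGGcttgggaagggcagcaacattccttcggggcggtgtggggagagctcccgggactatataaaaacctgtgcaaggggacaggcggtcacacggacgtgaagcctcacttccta
Actc1, chr2:114052826-114053125, minus strand: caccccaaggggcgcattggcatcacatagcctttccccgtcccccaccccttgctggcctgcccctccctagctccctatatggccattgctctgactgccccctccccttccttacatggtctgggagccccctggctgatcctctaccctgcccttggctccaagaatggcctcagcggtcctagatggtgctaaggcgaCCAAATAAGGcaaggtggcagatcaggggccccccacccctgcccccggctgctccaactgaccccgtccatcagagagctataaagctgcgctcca
With 1 mismatch allowed, the element was found in 5 of 11 smooth and 9 of 21 striated muscle windows, against 21.1% of all windows. Acta2, the alpha smooth muscle actin gene and the usual myofibroblast marker, had none without a mismatch and 2 with 1 mismatch, at -84 and -34, shown in capitals.
Acta2, chr19:34255324-34255623, minus strand: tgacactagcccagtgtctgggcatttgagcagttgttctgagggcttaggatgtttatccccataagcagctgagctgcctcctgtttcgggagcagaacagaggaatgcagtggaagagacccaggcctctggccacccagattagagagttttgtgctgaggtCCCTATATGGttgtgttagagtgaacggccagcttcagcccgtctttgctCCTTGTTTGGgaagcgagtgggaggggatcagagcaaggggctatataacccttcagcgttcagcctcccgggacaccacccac
The E-box CANNTG, also its own reverse complement, lay in 10 of 11 smooth and 19 of 21 striated muscle windows, and in 72.3% of all windows. A match is a string of letters and not a measured binding site.

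Of the 13 smooth muscle genes, 8 had a mean above 0 in Wrn mutant cells, 9 in PARP-1 null cells and 9 in double-mutant cells, and the 2 arrays of a genotype differed by as much as the genotypes did. The median of the 13 genes was 0.05 in Wrn mutant cells, 0.51 in PARP-1 null cells and 0.40 in double-mutant cells, against 0 for all named genes in each. On single arrays the median was 0.37 and -0.40 in Wrn mutant cells, -0.20 and 0.80 in PARP-1 null cells, and -0.21 and 0.64 in double-mutant cells. Its sign thus turned between arrays of the same genotype. Tagln alone passed the test, in double-mutant cells (limma over all features, Benjamini-Hochberg adjusted p under 0.05).

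Tagln encodes transgelin, an actin-bundling protein also called SM22. It was 0.67 and 0.24 on the Wrn mutant arrays, 1.18 and 1.59 on the PARP-1 null arrays, and 1.55 and 2.36 on the double-mutant arrays. It was above 0 on all 6 arrays, as were 17.0% of named genes. Both mutants without PARP-1 lay above the Wrn mutant without overlap, while they overlapped each other. The double mutant mean of 1.95 ± 0.57 (n = 2), a 3.87-fold level over wild type, passed with an adjusted p of 0.0276 in limma. The PARP-1 null mean of 1.38 ± 0.29 (adjusted p = 0.0697) and the Wrn mutant mean of 0.45 ± 0.30 (adjusted p = 0.384) did not (limma). Without the first or the second double-mutant array the value was 2.36 or 1.55, and with any single array left out the adjusted p lay between 0.0730 and 0.0916 (limma). It did not pass either when the arrays were scaled to one spread. The difference of 1.5 (SE 0.37) between double mutant and Wrn mutant did not pass either (limma adjusted p = 0.255).

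Acta2 was 0.86 and 0.43 in Wrn mutant cells, 0.96 and 1.96 in PARP-1 null cells, and -0.37 and 2.07 in double-mutant cells. The double-mutant pair spanned all other values of the gene. A gap between arrays as wide as its 2.44 was seen in 0.648% of named genes in that genotype. Its means of 0.64 ± 0.31, 1.46 ± 0.71 and 0.85 ± 1.72 (n = 2) did not pass, with adjusted p-values of 0.659, 0.296 and 0.490 (limma).

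Actg2, the enteric smooth muscle actin gene, ran alongside, at 0.58 and 0.12, then 0.61 and 1.45, then -0.41 and 1.73 in the same order of arrays. Cnn1, the smooth muscle calponin gene, was 1.10 and -0.49 in Wrn mutant cells, 0.35 and 1.36 in PARP-1 null cells, and 0.85 and 2.39 in double-mutant cells. For both genes the second double-mutant array was the highest of the 6. The genotypes of Cnn1 all overlapped, while for Actg2 the PARP-1 null arrays lay just above the Wrn mutant arrays and the double-mutant arrays spanned both. Cnn1 had its largest mean, 1.62 ± 1.09 (n = 2, limma adjusted p = 0.174), in double-mutant cells.

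Tpm1, a tropomyosin gene used in smooth and striated muscle, lay on the other side. It was 0.74 and -0.96 in Wrn mutant cells, -1.32 and -1.10 in PARP-1 null cells, and -0.56 and -0.52 in double-mutant cells. The PARP-1 null arrays were below all others, but the mean of -1.21 ± 0.15 (n = 2) did not pass in limma (adjusted p = 0.201). Without the first or the second Wrn mutant array, which enters the fit's estimate of variance, it passed (lowest adjusted p = 0.0364, limma).

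The other 8 smooth muscle genes ranged in their genotype means from -0.71, of the smoothelin gene Smtn in Wrn mutant cells, to 0.84. The latter was Myh11, the smooth muscle myosin heavy chain gene, in PARP-1 null cells, where its arrays read -0.29 and 1.98. Smtn was below 0 on all 6 arrays, as were 16.2% of named genes. Des, which encodes the intermediate filament protein desmin, was between -0.69 and 0.05. The calponin gene Cnn2, which is also active outside smooth muscle, was between -0.24 and 1.52. The caldesmon gene Cald1 was between -0.28 and 0.92, and Tpm2 between -0.78 and 0.64. Mylk, the myosin light chain kinase gene, had 2 spots that disagreed, at 1.05 and -0.56 on the first Wrn mutant array. Myl9, whose product that kinase phosphorylates, had 2 spots as well. One read 0.66, -0.62, -0.19, 1.38, 0.36 and 2.10 over the arrays in the order above, and the other -0.60, -1.31, -0.84, -1.15, -0.72 and -0.82. Only the first moved with the rest of the group, so the averaged Myl9 value (0.23 ± 0.58 in double-mutant cells) hides 2 unlike readings.

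**Figure D1:**
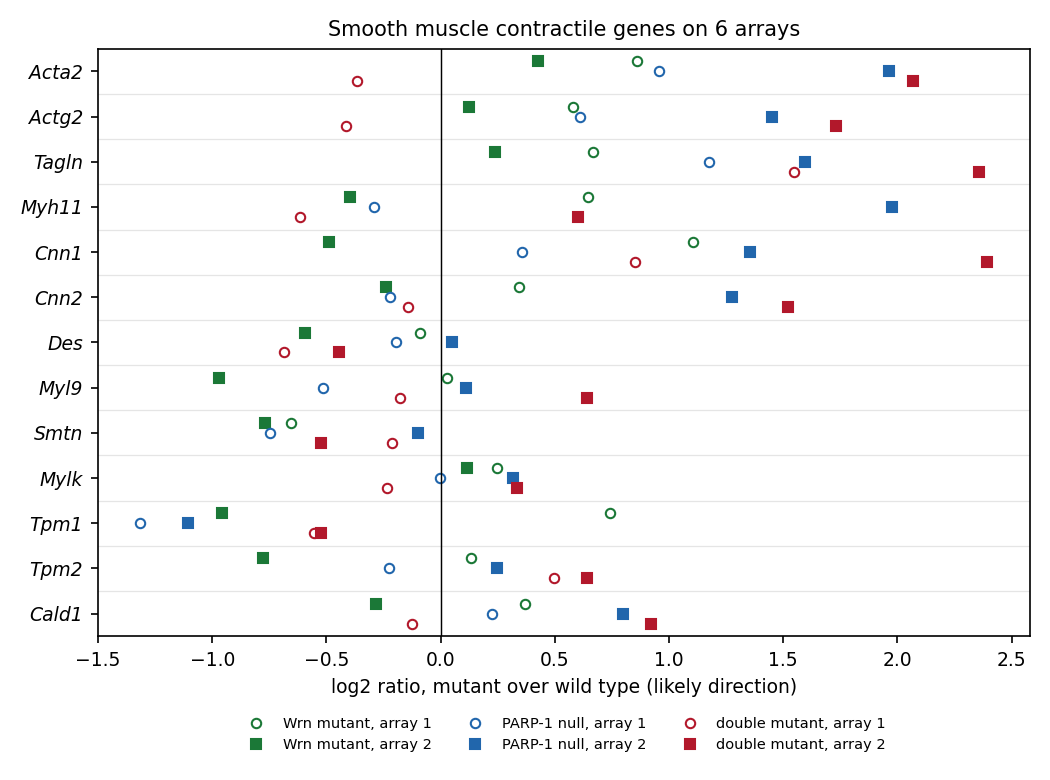
Log2 ratios of the 13 smooth muscle genes, 1 row per gene, with 1 point per array (open circles, first array of a genotype; filled squares, second array; colours, genotypes). The double-mutant arrays of Acta2 sit at -0.37 and 2.07, and Tagln is above 0 on all 6 arrays.

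The order of the arrays was shared by nearly the whole smooth muscle group. In 12 of its 13 genes the first Wrn mutant array, the second PARP-1 null array and the second double-mutant array each lay above their partner, against 19.1% of all named genes. Smtn was the exception, through its double-mutant arrays. Mylk had the order through only 1 of its 2 spots. The second double-mutant array was the highest of the 6 in 9 of 13 genes (15.5% of named genes). This order was picked out after the values were seen. Among the 22 striated muscle genes only Acta1, Actc1 and the slow and cardiac troponin C gene Tnnc1 had it. The order was seen in 15 of the 35 members (42.9%) and in 12 of the 28 with a promoter window. All 4 genes with a full CArG box had it, Myl9 through only 1 of its 2 spots. Of these, Cnn2 and Myl9 belong to the smooth muscle group, where 12 of 13 genes had the order, and Acta1 and Actc1 are both actin genes. Of the 14 genes with a box at up to 1 mismatch, 7 had the order and 7 did not, namely Ckm, Myh3, Myl1, Mylpf, Tnnc2, Tnnt2 and Ttn. Cnn1, Des, Mylk and Tpm2 had the order with no box at up to 1 mismatch in their windows. Whether the box bears on the order was not tested.

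**Figure D2:**
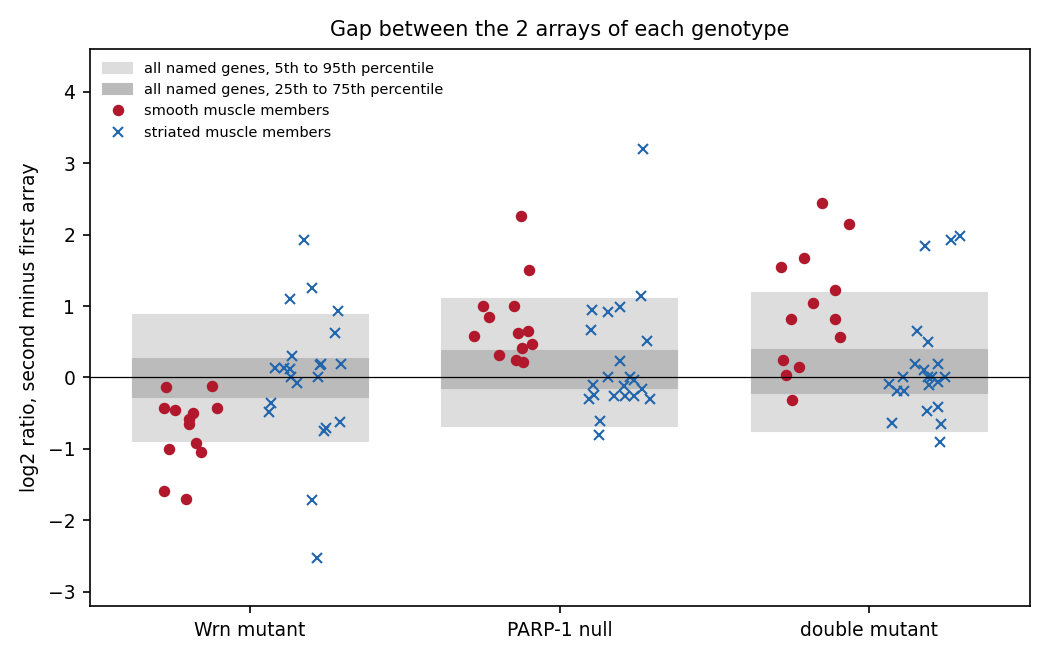
Second minus first array (log2) for each smooth muscle gene (red points) and striated muscle gene (blue crosses) in each genotype, over grey bands for all named genes; horizontal spread within a group has no meaning. Every smooth muscle gene lies below 0 in Wrn mutant cells (45.7% of named genes) and above 0 in PARP-1 null cells (52.6%), and 12 of 13 lie above 0 in double-mutant cells (45.7%).

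Genes of the actin filament in non-muscle cells often shared this order. Of 23 measured actin filament and adhesion genes of non-muscle cells, 19 had the same order of arrays, with medians of 0.25 and -0.23 in Wrn mutant cells, 0.06 and 0.73 in PARP-1 null cells, and 0.17 and 1.08 in double-mutant cells. In the double mutant Vim (vimentin, 2.51 ± 0.63) and Tpm3 (a tropomyosin, 1.57 ± 0.46) rose and Pxn (the adhesion protein paxillin, -1.02 ± 0.10) fell. These were 13.0% of the list, against 18.5% of named genes. Vim also rose in PARP-1 null cells (2.05 ± 0.36). Of 28 measured TGF-beta and matrix genes, 11 had the order. In the double mutant the ligand genes Tgfb3 (1.87 ± 0.24) and Tgfb2 (1.68 ± 0.28) and the collagen cross-linking gene Lox (2.06 ± 0.62) rose. Another 2 genes fell, among them the co-receptor gene Tgfbr3 (-1.13 ± 0.01). In all, 17.9% of the list passed, against 18.5% of named genes. The median of the list over double-mutant means was -0.05, with 13 genes above 0 and 15 below. TGF-beta is the textbook inducer of myofibroblasts, but a link of these genes to the smooth muscle values was not tested. In the PARP-1 null 1 gene of this list fell and none rose (3.57%, against 7.19% of named genes). In Wrn mutant cells none passed (limma, adjusted p under 0.05 throughout).

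Markers of other cells shared the order to varying extents. It was seen in 2 of 14 fibroblast markers, 1 of 10 pericyte and vascular markers, 1 of 10 endothelial, 5 of 9 macrophage, 3 of 10 epithelial, 2 of 8 neural and 2 of 6 mesothelial markers. The fibroblast medians were 0.12 and 0.94, 0.74 and 0.87, then 0.48 and 0.73, so that the Wrn mutant arrays ran against the smooth muscle genes. In the double mutant 2 fibroblast markers rose and 1 fell, 21.4% of the list against 18.5% of named genes. The macrophage median was 1.03 on the first and 0.25 on the second Wrn mutant array, and between -0.28 and 0 on the others, and no macrophage marker passed (the nearest, the mannose receptor gene Mrc1, was at 1.37 ± 0.13 in Wrn mutant cells). Of the pericyte markers only Anpep passed, which fell in PARP-1 null cells (-0.95 ± 0.14) and the double mutant (-1.30 ± 0.04). That was 10.0% of the list in each, against 7.19% and 18.5% of named genes. The pericyte medians over genotype means were 0.20 (6 genes above 0, 4 below) and 0.13 (5 above, 5 below) there. The mesothelial median was 1.55 and -0.69, 2.48 and 2.31, then 1.30 and 2.54. There Gpm6a rose in Wrn mutant cells and Wt1 in double-mutant cells, each 16.7% of the list, against 2.35% and 18.5% of named genes. In the endothelial, epithelial and neural lists 1 gene each passed. Cldn5 rose in double-mutant cells (10.0% of its list), Epcam fell in PARP-1 null cells (10.0%), and Sox10 rose in both genotypes without PARP-1 (12.5%). Named genes passed at 7.19% in PARP-1 null and 18.5% in double-mutant cells. Over genotype means, the neural median was -0.51 in PARP-1 null cells (3 genes above 0, 5 below). In double-mutant cells it was -0.37 (2 above, 6 below). The endothelial median was 0 in double-mutant cells (4 above, 4 below), and the epithelial was -0.01 in PARP-1 null cells (3 above, 6 below). The part of such cells in the smooth muscle values was not tested. Of 70 cytosolic ribosomal protein genes, looked at after the values were seen, 3 had the order. Their medians were 0.01 and 0.43, 0.23 and 0.95, then 0.03 and 1.22.

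**Figure D3:**
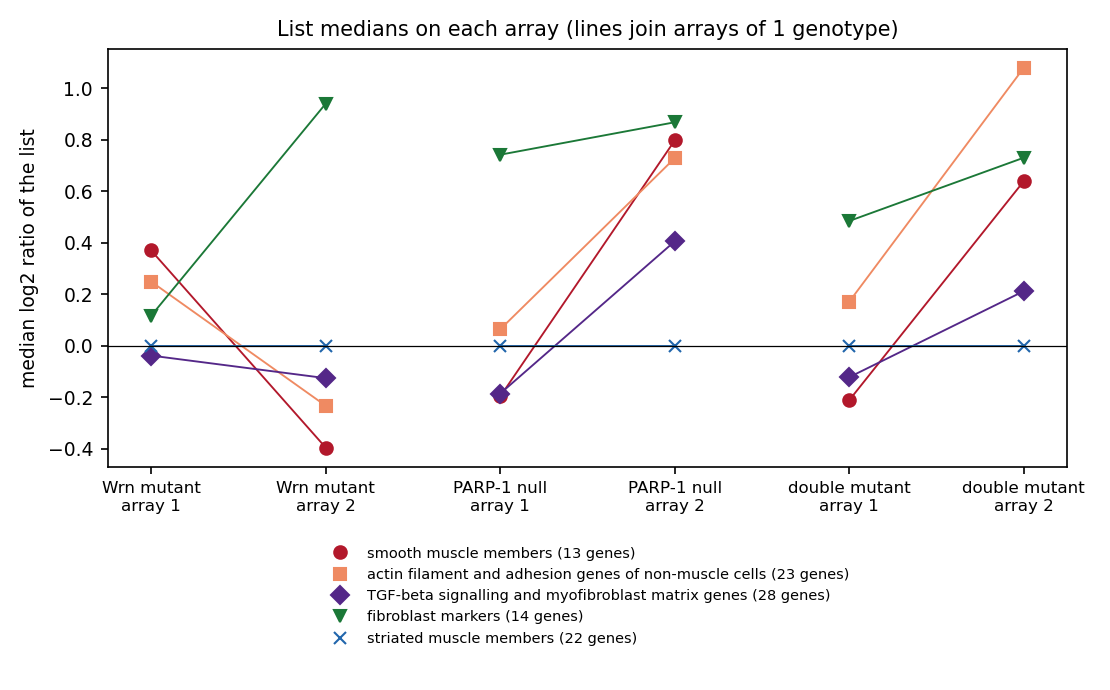
Median log2 ratio of 5 gene lists on each array, with lines that join the arrays of a genotype. The smooth muscle median falls from 0.37 to -0.40 between the Wrn mutant arrays and climbs from -0.20 to 0.80 and from -0.21 to 0.64 in the other genotypes, while the striated median stays at 0.

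Striated muscle genes did not move as a group. Their median was 0 on each array and 0.04, 0.01 and -0.02 over the means of the Wrn mutant, the PARP-1 null and the double mutant. On every array the middle of the list fell on genes that read exactly 0, a value whose meaning is not stated. Of the 22, none passed in Wrn mutant cells, Mybpc1 rose in PARP-1 null cells, and in double-mutant cells Myog rose while Myh8, Myl4, Tnnt3 and Tnni1 fell (limma, Benjamini-Hochberg). The 4 genes that fell were below 0 on all 6 arrays, as was Ttn. Together they were 22.7% of the 22, against 16.2% of named genes below 0 on all 6 arrays. The 5 that passed in double-mutant cells were also 22.7%, against 18.5% of named genes.

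Among the regulators, Myog, the myogenin gene that drives terminal muscle differentiation, was 0.55 and 0.67 in Wrn mutant cells, 0.59 and 0.28 in PARP-1 null cells, and 0.67 and 0.49 in double-mutant cells. All 6 arrays were above 0 and the genotypes overlapped. The double-mutant mean of 0.58 ± 0.13 passed (limma adjusted p = 0.0416), the Wrn mutant mean of 0.61 ± 0.09 did not (adjusted p = 0.0786, limma), and the difference between them was -0.03. Myod1, the founding member of the family, was between -0.27 and 0.83 and Myf6 between 0 and 1.05. Myf5, which acts first in the embryo, was exactly 0 on 5 arrays and -2.52 on the second Wrn mutant array.

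Of the myosin genes, the perinatal heavy chain gene Myh8 was -0.59 and -0.40 in Wrn mutant cells, -0.63 and -0.41 in PARP-1 null cells, and -0.72 and -0.53 in double-mutant cells. One of its 2 spots was exactly 0 on every array, and the other ran from -1.44 to -0.81, so averaging brought its values nearer to 0. The averaged double-mutant value of -0.63 ± 0.14 passed (limma adjusted p = 0.0323). Myl4, the atrial and embryonic light chain gene, was -0.56 and -0.26, -0.34 and -0.46, then -0.75 and -0.55, with -0.65 ± 0.14 in double-mutant cells (limma adjusted p = 0.0346). Both genes were below 0 on all 6 arrays. The genotypes of Myh8 overlapped, while for Myl4 the double-mutant arrays lay below the PARP-1 null arrays and both overlapped the Wrn mutant. The embryonic heavy chain gene Myh3 was the least even, at -1.14 and 2.06 on the PARP-1 null arrays. Myl1, a fast skeletal light chain gene, was exactly 0 on all 6 arrays, Mylpf was between -0.05 and 0.92 and Myh7 between -0.81 and 0.33.

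The sarcomeric actin genes had the same order of arrays as the smooth muscle actins. Acta1 was 1.01 and -0.71 in Wrn mutant cells, 0.84 and 1.97 in PARP-1 null cells, and 0.49 and 2.42 in double-mutant cells. Actc1 was 0.92 and 0.18, 0.85 and 1.77, then 0.25 and 2.23. Actc1 was above 0 on every array, Acta1 on all but 1, and neither separated the genotypes. Acta1 averaged, in PARP-1 null and double-mutant cells, 1.41 ± 0.80 and 1.45 ± 1.36 (limma adjusted p = 0.326 and 0.270). Actins are close paralogues, and which of them a spot binds was not checked here.

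Among the troponin genes, 2 fell in double-mutant cells. Tnnt3, the fast skeletal troponin T gene, was -0.57 and -1.28 in Wrn mutant cells, -1.05 and -1.09 in PARP-1 null cells, and -1.02 on both double-mutant arrays. It was below 0 on every array, and the Wrn mutant arrays spanned those of the other genotypes, which lay close together without overlap. It passed in double-mutant cells (limma adjusted p = 0.0446), a 0.494-fold level. Tnni1, the slow troponin I gene, was -0.47 and -0.55, -0.08 and -0.33, then -0.63 and -0.52. Its PARP-1 null arrays were the nearest to 0, and its double-mutant mean of -0.58 ± 0.08 passed (limma adjusted p = 0.0278).

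Tnnt1, the slow troponin T gene, was 0.73 and 1.98 in Wrn mutant cells, 0.27 and 1.22 in PARP-1 null cells, and 2.39 and 1.92 in double-mutant cells. It was above 0 on all arrays, and its double-mutant mean of 2.16 ± 0.33 lay just outside the threshold (limma adjusted p = 0.0501). Tnnt2, the cardiac troponin T gene, was 1.86 on the second Wrn mutant array and between -0.54 and 0.01 on the others. Some troponin genes are neighbours in the mouse genome. Tnni2 and its neighbour Tnnt3 averaged 0.24 and -0.93 in Wrn mutant cells, -0.55 and -1.07 in PARP-1 null cells, and -0.45 and -1.02 in double-mutant cells. Tnni1 and its neighbour Tnnt2 averaged -0.51 and 0.90, -0.21 and -0.41, then -0.58 and -0.04. Each pair thus had opposite signs in Wrn mutant cells and one sign in the others, and the 0.90 of Tnnt2 came from 1 array. Tnni2, the fast troponin I gene, was 0.18 and 0.30 in Wrn mutant cells but -0.47 and -0.62 in PARP-1 null cells and -0.69 and -0.20 in double-mutant cells. The troponin C gene Tnnc1 was between -1.07 and 0.77 and Tnnc2 between -0.26 and 0.27.

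Mybpc1, which encodes slow myosin-binding protein C of the thick filament, was 2.62 and 3.29 on the PARP-1 null arrays and exactly 0 on the other 4. Its mean of 2.96 ± 0.47 (n = 2), a 7.76-fold level, passed with an adjusted p of 0.0106 (limma). With no spread of their own, the zeros lower the fit's estimate of the gene's spread, and whether they were measured is unknown. The difference from the Wrn mutant, 2.96 (SE 0.25), did not pass (limma adjusted p = 0.144), nor did that from the double mutant (adjusted p = 0.411, limma). With either double-mutant array left out, the value in PARP-1 null cells did not pass (highest adjusted p = 0.0506, limma). The creatine kinase gene Ckm was between -0.30 and 1.04. The giant spring protein gene Ttn had 7 spots, of which 3 were exactly 0 on every array, and its average was between -0.59 and -0.21.

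**Figure D4:**
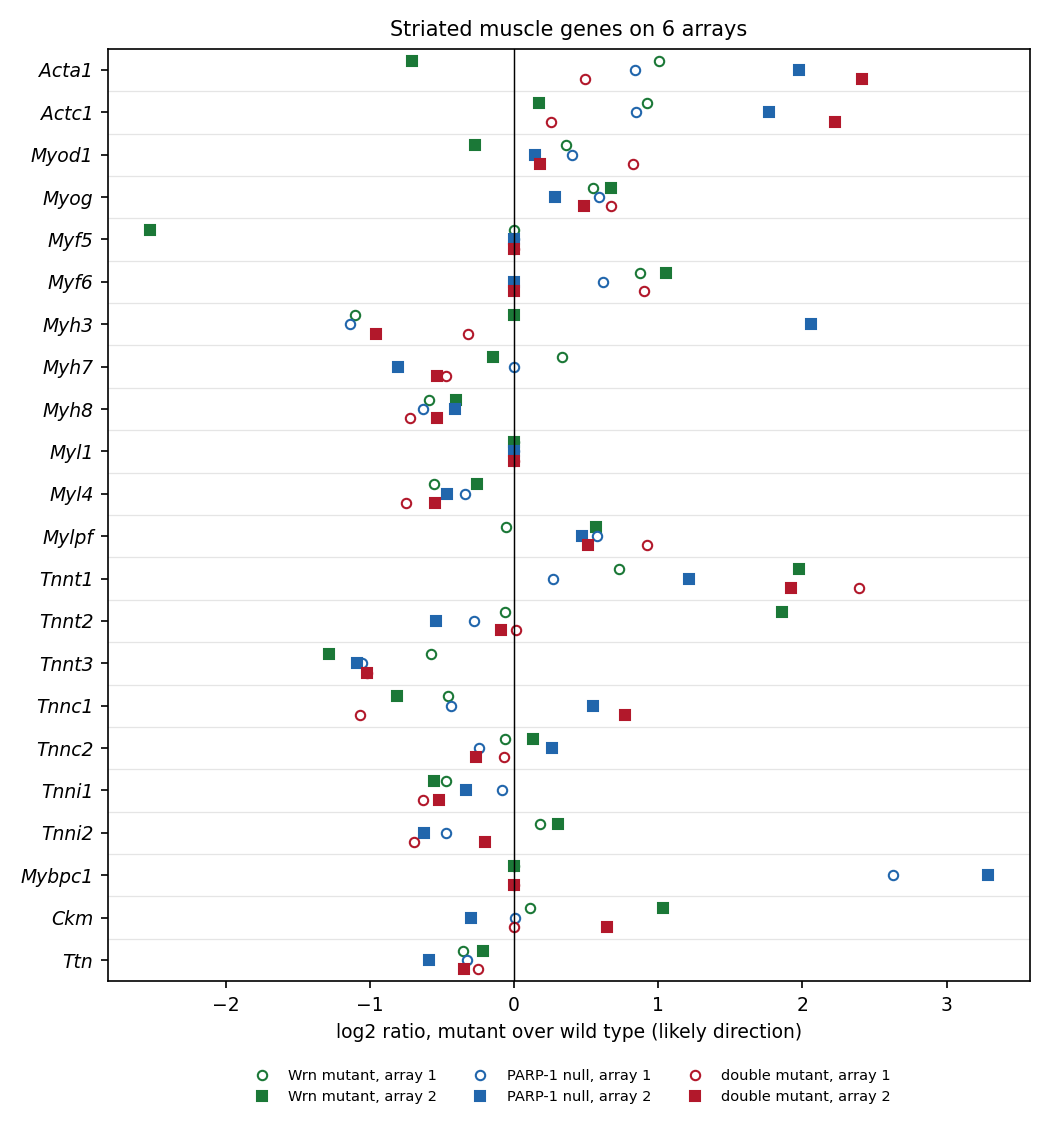
Log2 ratios of the 22 striated muscle genes, drawn as for the smooth muscle genes, with points of the same value covering one another at 0. Mybpc1 stands at 2.62 and 3.29 on the PARP-1 null arrays and at 0 on the others, and Tnnt3 is below 0 on all 6.

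Counted over the 35 genes, 0 passed in Wrn mutant cells (2.35% of named genes passed there), 1 in PARP-1 null cells (7.19%) and 6 in double-mutant cells (18.5%). The shares of the members, 2.86% in PARP-1 null cells and 17.1% in double-mutant cells, did not exceed those backgrounds. By direction, the 1 member of the PARP-1 null was higher (3.33% of named genes), and in double-mutant cells 2 were higher (10.1%) and 4 lower (8.38%). At an unadjusted p under 0.05, 9 of 35 passed in Wrn mutant cells, where 23.4% of named genes did, 8 in PARP-1 null cells (27.5%) and 11 in double-mutant cells (37.4%). By size alone, at least 2-fold with one sign on both arrays, 1 member passed in Wrn mutant cells (7.83% of named genes), 8 in PARP-1 null cells (10.5%) and 6 in double-mutant cells (16.8%). In the PARP-1 null the 8 were 22.9% of members. Above 0 were Acta2, Actg2, Tagln, Acta1, Actc1 and Mybpc1 (17.1%, against 4.64% of named genes), and below 0 Tpm1 and Tnnt3 (5.71%, against 5.87%). Acta2, Actg2, Acta1 and Actc1 are close paralogues and may not be separate readings, since which actin a spot binds was not checked. With any single array left out, most or all of the 6 members of the double mutant no longer passed. Far fewer named genes passed in double-mutant cells under each of these settings too, so the drop is not particular to the members. With the arrays scaled to one spread, only Tnni1 passed in double-mutant cells, and it passed in Wrn mutant cells too.

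Between genotypes no member passed in limma. The PARP-1 null against the Wrn mutant had 1 named gene past (0.00606%), and the double mutant had none against either single mutant (0.0% in both). At an unadjusted p under 0.05, 2 members passed in each of the 3 comparisons. They were Tnni2 and Mybpc1 for PARP-1 null against Wrn mutant (8.8% of named genes), Tagln and Tnni2 for double mutant against Wrn mutant (15.1%), and Tnni1 and Mybpc1 for double mutant against PARP-1 null (7.16%). With a 2-fold distance and no overlap of arrays as the rule, the counts in the same order were 3 (4.96% of named genes), 1 (7.5%) and 2 (3.19%).

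Other genes of skeletal and cardiac muscle passed in both directions. Of 26 measured genes of muscle progenitors and myogenic control, 1 rose and 0 fell in Wrn mutant cells, 1 rose and 2 fell in PARP-1 null cells, and 3 rose and 3 fell in double-mutant cells (limma). These were 3.85%, 11.5% and 23.1% of the list, against 2.35%, 7.19% and 18.5% of named genes. Igf2, a growth factor that promotes myoblast differentiation, rose in all 3 (2.64 ± 0.24, 2.31 ± 0.25 and 2.22 ± 0.08). Cdh15, the M-cadherin gene of muscle precursors, and Id1 rose in double-mutant cells (2.03 ± 0.36 and 1.78 ± 0.71). Prdm16, known for directing brown fat against muscle fate, fell in PARP-1 null cells (-2.33 ± 0.24) and the double mutant (-1.32 ± 0.10). Of 48 measured genes of the sarcomere, calcium release and the neuromuscular junction, 0 rose and 1 fell in Wrn mutant cells, 2 rose and 2 fell in PARP-1 null cells, and 3 rose and 3 fell in double-mutant cells, which were 2.08%, 8.33% and 12.5% of the list. The small heat shock gene Hspb3 fell in all 3 genotypes (-1.79 ± 0.03, -2.05 ± 0.42 and -2.30 ± 0.08). The muscle ubiquitin ligase gene Fbxo32, which targets muscle protein for breakdown, rose in PARP-1 null cells (0.86 ± 0.11) and the double mutant (1.62 ± 0.11). In double-mutant cells Ldb3 also rose (1.52 ± 0.01) and Pgam2 fell (-2.02 ± 0.64). Of 19 cardiac genes, none passed in Wrn mutant cells, 1 rose and 1 fell in PARP-1 null cells, and 1 rose and 2 fell in double-mutant cells (10.5% and 15.8% of the list in the genotypes without PARP-1). Nppb, the gene of brain natriuretic peptide, had the largest change and fell in both (-3.68 ± 0.59 and -3.63 ± 0.33), with a mean of -3.52 ± 1.21 that did not pass in Wrn mutant cells. Mybpc3, which encodes cardiac myosin-binding protein C, fell in double-mutant cells (-1.26 ± 0.12). The atrial light chain gene Myl7 was the gene that rose (2.04 ± 0.70 and 2.06 ± 0.18), opposite in sign to Myl4, whose product is its partner light chain in atrial myosin.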

How the data were processed

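Expression was measured on 6 Agilent 60-mer mouse arrays, 2 per genotype, each against wild type (passage 2, put at 10 population doublings by the design text). The authors deposited 1 value per spot, 22393 spots an array, taken here as a log10 ratio because the values stop exactly at a size of 2. Base, direction, centring, background method and spot filters are not given here. Array medians were 0 and no value was missing. Values were multiplied by 3.32 (log2 of 10) to the log2 scale. Through the platform annotation 18218 spots had 1 gene symbol, 16 had several (left unnamed) and 4159 had none. The mean over a gene's spots was used, for 20679 features of which 16504 were named genes. RefSeq held all 35 members by Entrez ID.

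All features were fitted in limma 3.58.1 (R 4.3.3; lmFit, eBayes) in 1 model of the 6 arrays with a coefficient per genotype, 3 residual and 0.66 prior degrees of freedom, and Benjamini-Hochberg adjustment over all features at 0.05. The 6 comparisons were each genotype against wild type and the genotypes with one another. The number of arrays limits the precision. Pools were of embryos of 1 litter; which pool was on which array is not given here, so p-values measure the spread between arrays, which may be technical. Members given in full were those that passed in any comparison or reached 2-fold with one sign on both arrays of a genotype. From each companion list up to 4 genes that passed against wild type, by size, could be named. The members and lists were chosen with earlier results of these data known, and 1 companion list is not reported here. Alternatives were scaling between arrays, spot medians, spots not averaged, zeros as missing, a replicate block, each array left out, and a 2-fold rule. Figures used matplotlib 3.10.9 in Python 3.11.15.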

Additional observations from a re-analysis of the deposited data

Results flagged for a closer look

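Some genes lay on one side of 0 on both arrays of a genotype and on the other side on both arrays of another. In limma none of these differences passed. Among the 35 members this was seen only for Tnni2 (2.86% of members, against 10.4% of named genes). Its difference from the Wrn mutant was -0.79 (SE 0.20, adjusted p = 0.460, limma) in PARP-1 null cells and -0.69 (adjusted p = 0.300, limma) in double-mutant cells. Among the other genes named, the pericyte marker Anpep differed from the Wrn mutant by -1.04 in PARP-1 null cells and -1.39 in double-mutant cells (limma adjusted p = 0.144 and 0.103). The fibroblast marker S100a4 differed from the Wrn mutant by 2.19 and 2.42 (limma adjusted p = 0.342 and 0.178). The mesothelial marker Gpm6a in double-mutant cells differed by -1.36 from the Wrn mutant and by -0.87 from the PARP-1 null (limma adjusted p = 0.110 and 0.497). With 2 arrays a genotype, single arrays were not tested as outliers.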

How the results depend on the processing

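Counts of named genes past the threshold against wild type (388, 1187 and 3052 in Wrn mutant cells, PARP-1 null and double mutant) became 940, 1223 and 1013 with scaling between arrays, 883, 2231 and 4350 with zeros as missing, and 1293, 1735 and 2767 by the 2-fold rule. With single arrays left out they were 0 to 768, 56 to 597 and 32 to 1308. Between genotypes (1, 0 and 0 for PARP-1 null against Wrn mutant and double mutant against Wrn mutant and PARP-1 null) they were 7, 3 and 0 with scaling, 16, 39 and 0 with zeros as missing, 819, 1238 and 527 by the 2-fold rule, and up to 342, 387 and 286 with an array left out, the lowest being 0 in each. Members past (0, 1 and 6 against wild type) became 1, 2 and 1 with scaling, 1, 5 and 7 with zeros as missing, 1, 8 and 6 by the 2-fold rule, and 0 to 3, 0 to 3 and 0 to 1 with an array left out. Between genotypes they were 1, 0 and 0 with scaling, 3, 1 and 2 by the 2-fold rule, and 0 to 1 with an array left out. With a replicate block, 0, 0 and 1215 named genes and 0, 0 and 1 members (Myh8) passed against wild type, and 0 named genes for PARP-1 null against Wrn mutant. The block numbers come from accession order, and the gaps between arrays correlated over all features at -0.11, -0.17 and 0.15 for the 3 pairs of genotypes, so the block pairs nothing known. The smooth muscle median ranged from -0.40 to 0.37, -0.20 to 0.80 and -0.21 to 0.64 with an array left out. The striated median, 0.040, 0.0052 and -0.019, became 0.061, 0 and -0.018 with scaling, 0.068, 0.032 and -0.15 with zeros as missing, 0 in each genotype with spots not averaged, 0 in double-mutant cells with spot medians, and -0.019 there with the replicate block. With an array left out it ranged from 0 to 0.040, 0 to 0.0052 and -0.019 to 0. Leaving out an array turned the sign of Acta2 (-0.37 to 2.07) and Actg2 (-0.41 to 1.73) in double-mutant cells, and of Cnn1 (-0.49 to 1.10), Tpm1 (-0.96 to 0.74) and Acta1 (-0.71 to 1.01) in Wrn mutant cells. Leaving out an array leaves fewer samples, and zeros as missing leaves fewer values; otherwise the cause was not tested. Of the 42 results on single genes under the settings that keep all arrays, 189 values kept direction and side of the threshold, 12 no longer passed, 7 newly passed and 0 turned. Signal over background is unknown, so dim spots could not be set apart.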
